A study of Saccharomyces cerevisiae with 6 samples.

Results

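The genes described here encode the Nrd1-Nab3-Sen1 transcription termination complex of budding yeast (NRD1, NAB3 and SEN1) and 5 enzymes of nucleotide synthesis (IMD2, IMD3, URA2, URA8 and ADE12). The mRNAs of IMD2, URA2, URA8 and ADE12 are set by early termination or by the choice of start site. IMD3, grouped with them here, encodes a constitutive form of the IMD2 enzyme. All 8 genes were chosen by name through the annotation of the array. It gave 1 probe set for each of them among the 5449 genes tested, and none of the 8 was lost to a filter. Transcripts were measured in 3 samples of a nab2-1 mutant and 3 of a wild type, with 1 Affymetrix array per sample. Per the labels, the mutant was a W303-1A strain in which HIS3 replaced the chromosomal NAB2 gene and in which the nab2-1 allele was supplied on a centromeric plasmid marked with LEU2. The wild type was W303-1A with no further change given. Both strains were in exponential growth in rich medium at the same temperature. Whether the replicates were grown as separate cultures is not labelled. The p-values therefore reflect the variation among these arrays alone, and that variation may be technical. A mutant that differs from its control in the allele, the plasmid and 2 marker genes does not separate these factors from each other.

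Nab2 is a nuclear protein that binds poly(A) tails and takes part in the protection, 3′ end formation and export of mRNA. Nrd1 and Nab3 recognise short motifs in nascent RNA, and the helicase Sen1 releases the polymerase. The complex ends the transcription of small nucleolar RNA genes (snoRNA genes) and of cryptic unstable transcripts, and its products pass to the TRAMP polyadenylation complex and the nuclear exosome. In attenuation the same machinery ends a transcript close to its start, so that no full mRNA is made. At IMD2 a start site used when guanine nucleotides are plentiful gives such a short transcript, while a start further downstream gives the mRNA. URA2, URA8 and ADE12 are known for related start-site switches, and NRD1 itself carries an early terminator that its own product uses.

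Of the 8 genes, NRD1, NAB3, SEN1, IMD2 and URA2 were higher in nab2-1 and URA8 and ADE12 were lower, while IMD3 did not pass the test. Changes were modest, and 0 of the 8 genes reached 2-fold, against 9.87% of all genes that passed with at least that change. The largest rise was 1.62-fold (NRD1) and the largest fall 1.33-fold (ADE12). The test was limma's moderated test on log2 signals, with p-values adjusted over all 5449 genes by the Benjamini-Hochberg method and a threshold of 0.05. Changes were common across the genome, as 67.4% of all genes passed, 30.2% higher and 37.2% lower. The 7 calls in 8 genes are therefore read against that background. Of the 7 genes outside chromosomes I, XI and XVI, which differed as a whole (below), 4 were higher and 2 lower, against 19.8% higher and 43.2% lower among all tested genes outside them. All 3 nab2-1 arrays lay on 1 side of all 3 wild type arrays for 7 of the 8 genes, against 73.9% of all genes. The median difference of the 8 genes was 0.29 on the log2 scale, and that of all genes was -0.05.

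**Figure D1:**
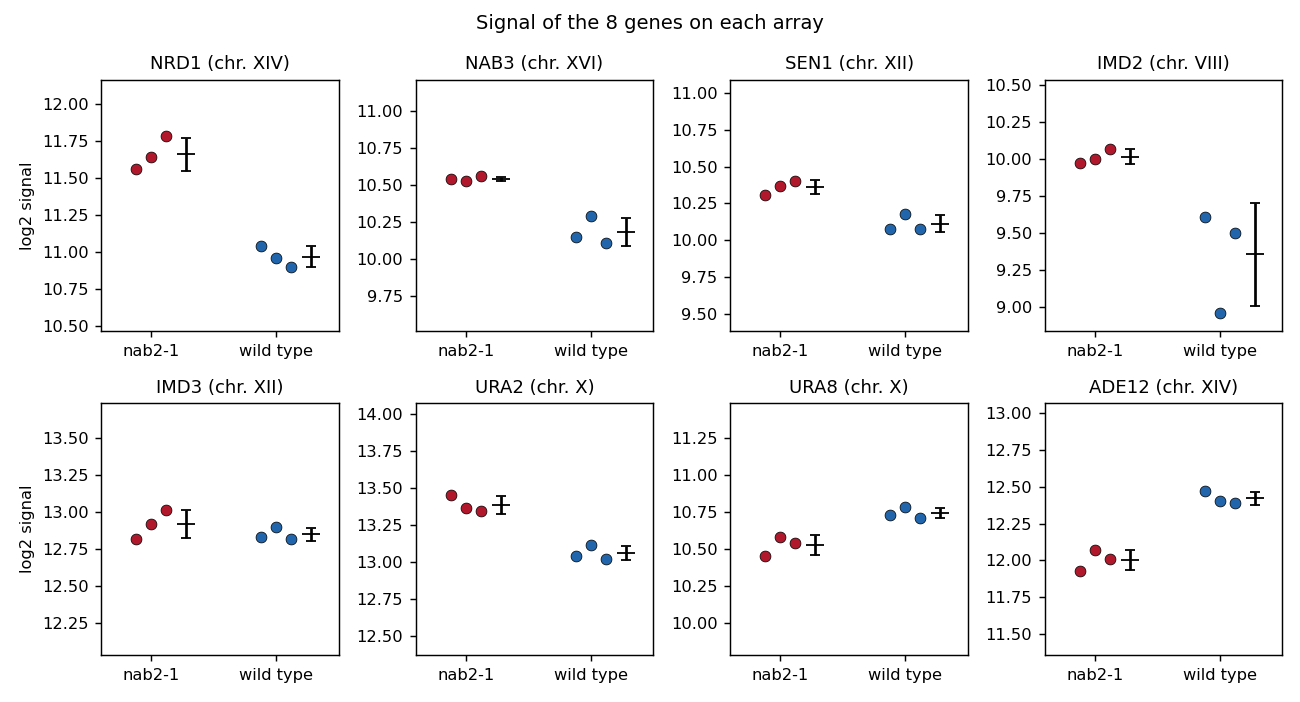
Log2 signal (vertical axis, the same span in each panel) of each gene on the 3 nab2-1 arrays (left) and the 3 wild type arrays (right), with the mean and SD of each group as bars. The groups overlap only for IMD3, and wild type replicate 2 is low for IMD2, at 8.96.

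Some properties of the whole data set bear on these values. Pearson correlations between arrays across genes were 0.994 to 0.998 within a group and 0.94 to 0.947 between groups. The RNA of NAB2 itself was 2.56-fold higher in nab2-1 (mean log2 signal 13.71 in nab2-1 and 12.36 in wild type arrays). It does not check the mutation, because no source used here places the probes relative to it. HIS3, which was inserted at NAB2 in the mutant, was lower in nab2-1, at -0.39 ± 0.06 (adjusted p = 0.00059), and LEU2, carried by its plasmid, was at 0.21 ± 0.10 (adjusted p = 0.11). The part of these differences in the results was not tested. Genes of chromosomes I, XI and XVI stood higher in nab2-1, with median differences of 0.73, 0.77 and 0.75, while each of the other chromosomes had a median from -0.14 to -0.08. Of the 8 genes, NAB3 alone lies on 1 of these 3 chromosomes. W303-1A is known as a MATa strain, and the mating-type genes did not match that in either group. The 4 MATalpha-specific genes had log2 signals of 12.62 to 14.15 on nab2-1 arrays and 12.15 to 13.96 on wild type arrays, each brighter than at least 89.8% of tested genes. The 7 MATa-specific genes lay at 6.91 to 10.16 on nab2-1 arrays and 6.37 to 9.21 on wild type arrays, each brighter than at most 31% of tested genes. Probe sets differ in brightness for the same amount of RNA, so these ranks are a description. MATa-specific genes were all higher in nab2-1 (7 of 7 passed, where 30.2% of all genes were higher). MFA1 and AGA2 led at differences of 1.98 and 1.57, with MFA2 at 1.54. Relative to chromosome medians these 7 genes again passed as higher, against 30.1% of all genes, with a median of 1.23, against 1.53 as deposited. Of the MATalpha-specific genes MF(ALPHA)2, STE3 and MF(ALPHA)1 were higher by 0.48, 0.42 and 0.22 and SAG1 was lower, at -0.18, and relative to their chromosomes STE3 was at -0.33 and MF(ALPHA)1 at -0.53. The part of mating type in the results below was not tested.

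NRD1 encodes the RNA-binding subunit that also contacts the tail of RNA polymerase II. On chromosome XIV (YNL251C), it had log2 signals of 11.56, 11.64 and 11.78 in nab2-1, against 11.04, 10.96 and 10.90 in the wild type. The lowest nab2-1 array was 0.52 above the highest wild type array, a gap wider than the spread of 0.22 within nab2-1 or 0.14 within the wild type. The difference was 0.69 ± 0.07 (SE, n = 3 each), with a 95% interval of 0.53 to 0.86 and an adjusted p of 8.6e-05 (limma). Only 17 of the 366 tested genes of chromosome XIV had a larger positive difference. In size it exceeded the differences of 78.4% of all tested genes.

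NAB3 encodes the partner of Nrd1 in RNA binding. On chromosome XVI (YPL190C), it gave 10.54, 10.53 and 10.56 in nab2-1, against 10.15, 10.29 and 10.11 in the wild type. The nab2-1 arrays were nearly equal (SD 0.013) and all above the wild type arrays. NAB3 was higher by 0.36 ± 0.06 (1.29-fold, adjusted p = 0.0011). That rise was smaller than the rise of its chromosome: 355 of the 424 tested genes of chromosome XVI had larger differences. When each array was lowered by the median shift of the chromosome, NAB3 was at -0.38, lower in nab2-1 (adjusted p = 0.0012), so its direction depends on whether the level or the level relative to chromosome XVI is meant.

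SEN1, on chromosome XII (YLR430W), encodes the helicase. Its log2 signals were 10.31, 10.37 and 10.40 in nab2-1, against 10.08, 10.18 and 10.08 in the wild type. The groups did not overlap, but the gap between them was 0.13, close to the spread of 0.10 within each group. SEN1 was higher by 0.25 ± 0.05 (1.19-fold, 95% interval 0.12 to 0.37, adjusted p = 0.0042). All 3 subunits were thus higher as deposited, NRD1 most.

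To determine whether the subunits changed by unequal amounts, the log2 signal of each was subtracted from that of another on the same array. NRD1 minus NAB3 was 1.02, 1.11 and 1.22 in nab2-1, against 0.89, 0.67 and 0.79 in the wild type, and the rise of NRD1 exceeded that of NAB3 by 0.33. Relative to chromosome medians that excess was 1.21. NRD1 exceeded SEN1 by 0.44, and NAB3 exceeded SEN1 by 0.12 as deposited but was at -0.71 against it relative to chromosome medians. In each of these 3 pairs the nab2-1 arrays did not overlap the wild type arrays. With 3 arrays against 3, the exact permutation test (two-sided) cannot go below p = 0.1, the value for each of the 3 pairs (0.117 after Benjamini-Hochberg adjustment over the 7 pairs compared here and below), so it cannot decide whether the subunits changed unequally. A limma fit of the within-array differences, added after the data were seen, borrows its error from the other 5448 genes minus the same partner. By that fit NRD1 passed against NAB3 (0.33 ± 0.10, adjusted p = 0.004) and against SEN1 (0.44 ± 0.08, adjusted p = 3e-04), and NAB3 against SEN1 did not (95% interval -0.04 to 0.27, adjusted p = 0.14). The variation of the subtracted gene is common to every row of such a fit, so these p-values are approximate. How many of all genes pass such a fit was not counted.

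**Figure D2:**
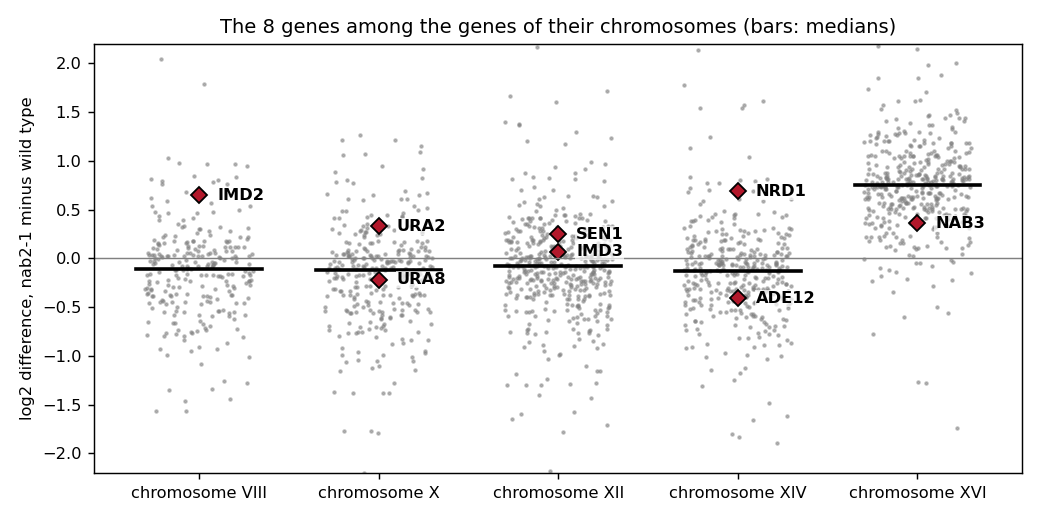
Difference in log2 signal (vertical axis, nab2-1 minus wild type) of the 1832 tested genes on the 5 chromosomes that carry the 8 genes, with chromosome medians as bars and the 8 genes as diamonds. NAB3 lies under the median of chromosome XVI, while NRD1, IMD2, URA2 and SEN1 lie above the medians of theirs. The axis leaves out 12 genes with differences beyond ± 2.2.

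IMD2 encodes the inosine monophosphate dehydrogenase that is induced when guanine nucleotides run low, the gene in which attenuation by start-site choice was worked out. On chromosome VIII (YHR216W), it had log2 signals of 9.97, 10 and 10.07 in nab2-1, against 9.61, 8.96 and 9.50 in the wild type. The nab2-1 arrays were close together, whereas wild type replicate 2 stood 0.54 below the next array of its group. The SD of IMD2 in the wild type, 0.35, was larger than that of 98.8% of tested genes, while its SD in nab2-1 was 0.052. IMD2 was higher in nab2-1 by 0.65 ± 0.16 (1.57-fold, adjusted p = 0.0076), with a wide interval of 0.28 to 1.02. Without wild type replicate 2 the difference was 0.45 (adjusted p = 0.0012). Just 16 of the 261 tested genes of chromosome VIII had larger positive differences. The array's name for the IMD2 probe set marks it as sharing probes with other sequences. IMD1, a near-identical disrupted copy, lies near the end of chromosome I, whose genes were higher in nab2-1. Whether signal from IMD1 enters the IMD2 value was not tested.

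IMD3 (YLR432W, chromosome XII) and IMD4 (chromosome XIII) encode the constitutive forms of the same enzyme. IMD3 gave 12.82, 12.92 and 13.01 in nab2-1, against 12.83, 12.90 and 12.82 in the wild type. The groups overlapped, with a difference of 0.07 ± 0.06 (95% interval -0.07 to 0.21, adjusted p = 0.34). The interval, for the values as deposited, leaves out a rise as large as the 0.65 of IMD2, though not changes between -0.07 and 0.21. IMD4 gave 13.02, 13.29 and 13.32 in nab2-1, against 13.12, 13.10 and 13.12 in the wild type, again with overlap and a difference of 0.10 ± 0.08 (adjusted p = 0.33). Relative to its chromosome IMD4 passed as higher, at 0.23 (adjusted p = 0.04). It also passed when scaled to the spiked controls (below), at 0.37 (adjusted p = 0.028). Because the genes are alike in sequence, their signals cannot be taken as fully separate.

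The same subtraction was made for IMD2 and its relatives. IMD2 minus IMD3 was -2.86, -2.92 and -2.94 in nab2-1, against -3.21, -3.94 and -3.32 in the wild type, a difference of 0.58. Against IMD4 the difference was 0.56. The arrays of the groups did not overlap in either pair, and the exact permutation p was 0.1 for each, the smallest this design allows (0.117 adjusted over the 7 pairs). The added limma fit of within-array differences passed for both, with adjusted p-values of 0.0038 against IMD3 and 0.0042 against IMD4. IMD3 minus IMD4 differed by -0.03 between groups, with overlap (exact permutation p = 0.6; limma 95% interval -0.26 to 0.20).

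**Figure D3:**
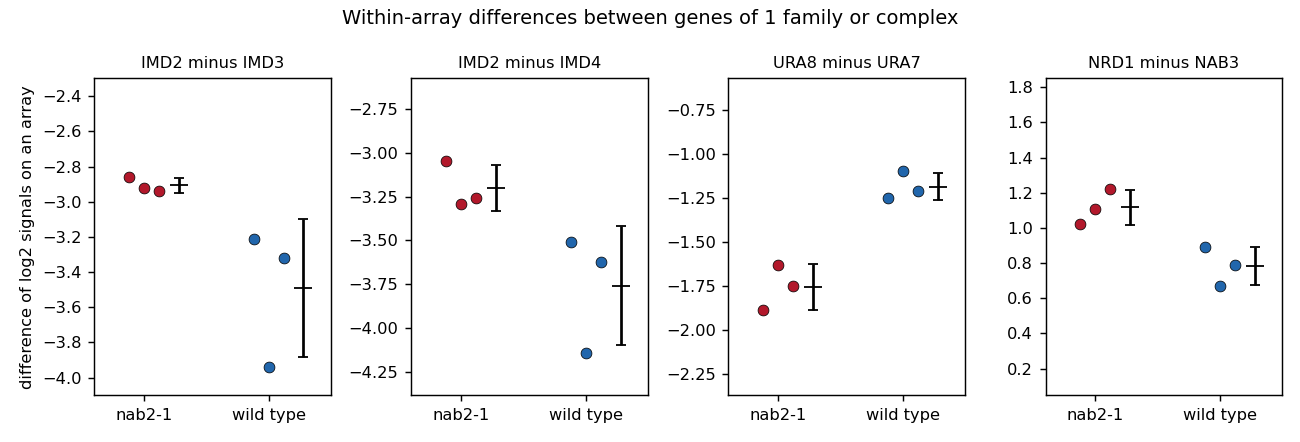
Difference of 2 genes' log2 signals on the same array (vertical axis) for 4 pairs of related genes, with nab2-1 on the left, wild type on the right, and the mean and SD of each group as bars. Only the change between groups is meaningful, since levels of different probe sets are not comparable. The groups do not overlap in any of the 4 pairs shown.

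URA2 encodes the enzyme of the opening steps of pyrimidine synthesis, which is inhibited by its end product UTP. On chromosome X (YJL130C), it had log2 signals of 13.45, 13.36 and 13.34 in nab2-1, against 13.04, 13.11 and 13.02 in the wild type. The groups were separated by 0.23, more than the spread within either. URA2 was higher by 0.33 ± 0.05 (1.26-fold, 95% interval 0.21 to 0.45, adjusted p = 0.00099). The gene on each side of it was lower in nab2-1, TRK1 by 0.29 ± 0.06 upstream (adjusted p = 0.0041) and AIM23 by 0.44 ± 0.08 downstream (adjusted p = 0.0022). Relative to the chromosome TRK1 was at -0.14 and no longer passed (adjusted p = 0.074).

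URA8 encodes the minor CTP synthase. It lies on the same chromosome as URA2 (YJR103W) and had 10.45, 10.58 and 10.54 in nab2-1, against 10.73, 10.78 and 10.71 in the wild type. All nab2-1 values were lower, by a gap of 0.13. The difference was -0.22 ± 0.05 (1.16-fold lower, adjusted p = 0.0086). This small fall was close to the median of chromosome X, -0.12. Relative to that median URA8 was at -0.07 (adjusted p = 0.29), and 191 of the 316 tested genes of the chromosome had higher differences. Scaled to the spiked controls it was at 0.06 (adjusted p = 0.77).

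URA7, on chromosome II, encodes the major CTP synthase and moved the other way. It had 12.34, 12.21 and 12.30 in nab2-1, against 11.98, 11.88 and 11.92 in the wild type, and rose by 0.35 ± 0.06 (1.28-fold, adjusted p = 0.00089). URA8 minus URA7 was -1.89, -1.63 and -1.75 in nab2-1, against -1.25, -1.10 and -1.21 in the wild type. The change of -0.57 was -0.54 relative to chromosome medians, and the exact permutation p was 0.1, the smallest possible (0.117 adjusted over the 7 pairs). It passed in the added limma fit (standard error 0.09, adjusted p = 0.00019).

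ADE12 encodes adenylosuccinate synthase, which opens the branch from IMP to AMP and so competes with the IMP dehydrogenases for their substrate. On chromosome XIV (YNL220W), it gave 11.93, 12.07 and 12.01 in nab2-1, against 12.47, 12.40 and 12.39 in the wild type. The highest nab2-1 array was 0.32 below the lowest wild type array. The difference was -0.41 ± 0.05 (1.33-fold lower, 95% interval -0.54 to -0.28, adjusted p = 0.00036). Relative to its chromosome it was at -0.28 (adjusted p = 0.0026). With the spiked controls as reference it was at -0.14 (adjusted p = 0.45).

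**Figure D4:**
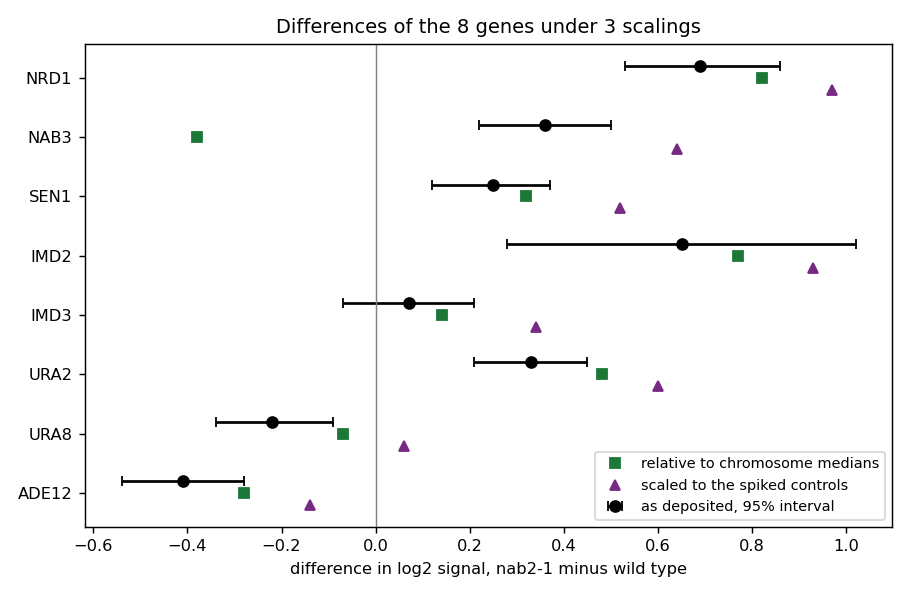
Difference in log2 signal (horizontal axis, nab2-1 minus wild type) of the 8 genes as deposited (circles, with 95% intervals), relative to chromosome medians (squares) and scaled to the spiked controls (triangles). NRD1, SEN1, IMD2 and URA2 stay above 0 under all 3 scalings, NAB3 falls to -0.38 relative to its chromosome, and URA8 moves to 0.06 with the spiked controls.

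The second reference in that plot came from the spiked poly(A) controls, which are RNAs added to each sample. Scaling the arrays to them moved the median of all genes to 0.22, against -0.05 as deposited. Of the 8 genes 6 were then higher and 0 lower, IMD3 now included at 0.34 (adjusted p = 0.044), while 50.6% of all genes passed, 39.1% higher and 11.4% lower. No source used here states the amounts added. The error of this scaling is shared by all genes of an array, so its p-values are approximate. Their mean log2 signal ran over 7.06 to 7.16 on nab2-1 arrays and 7.22 to 7.59 on wild type arrays, with an SD of 0.054 in nab2-1 and 0.19 in the wild type. Relative to chromosome medians 4 of the 8 genes were higher and 2 lower, while 61.6% of all genes passed, 30.1% higher and 31.5% lower.

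Other genes reported in the literature to be attenuated by Nrd1-Nab3 were examined next. HRP1, which encodes a cleavage factor subunit that binds the 3′ ends of mRNAs and carries an early terminator, had 12.58, 12.54 and 12.56 in nab2-1, against 11.80, 11.88 and 11.85 in the wild type. It rose by 0.71 ± 0.05 (1.64-fold, adjusted p = 1e-05), about the size of that of NRD1 (0.69), with far tighter arrays. PCF11, a cleavage factor gene whose product binds the polymerase tail in competition with Nrd1, rose less, by 0.19 ± 0.05 (adjusted p = 0.011), with 10.17, 10.27 and 10.26 in nab2-1 and 10.07, 10.04 and 10 in the wild type. GSC2 (FKS2), a glucan synthase gene attenuated outside cell wall stress, had 11.88, 11.84 and 12.16 in nab2-1 and 11.78, 11.89 and 11.81 in the wild type, and its difference of 0.13 ± 0.09 did not pass (adjusted p = 0.22). These 3 genes lie on chromosomes other than I, XI and XVI. As deposited 2 of the 3 passed as higher, against 30.2% of all genes and 19.8% of those outside these chromosomes. Relative to chromosome medians all 3 passed as higher, against 30.1% of all genes.

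The partners of the complex in termination are the cleavage and polyadenylation factors, the APT complex that acts at snoRNA genes, and the torpedo exonuclease. Of 15 tested genes of this list, 8 were higher and 3 lower, and the median difference was 0.19, beside 30.2% higher, 37.2% lower and a median of -0.05 over all genes. The largest changes were those of SYC1 and SWD2, both APT subunit genes, and HRP1. SYC1 fell by 0.85 ± 0.08 (adjusted p = 4.8e-05). SWD2 rose by 0.81 ± 0.06 (adjusted p = 2e-05) but lies on chromosome XI and was at 0.06 relative to it. The APT genes PTI1, GLC7 and REF2, named here after their values were seen, rose by 0.56, 0.29 and 0.26, whereas SSU72, the phosphatase gene of that complex, was at -0.12 (adjusted p = 0.13). The list as a whole thus had members in both directions within a single complex.

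Downstream of termination, TRAMP and the cofactors of the nuclear exosome process or degrade the released RNA. Of 8 tested genes, 2 were higher and 3 lower, near the shares of all genes (30.2% higher and 37.2% lower), and the median difference was 0.05. Among the TRAMP subunit genes, 3 fell: TRF5, a poly(A) polymerase gene, by 0.36 ± 0.07 (adjusted p = 0.0026), and the RNA-binding subunit genes AIR2 and AIR1 by 0.32 ± 0.08 and 0.32 ± 0.06 (adjusted p = 0.0093 and 0.0029). The other TRAMP genes, the helicase gene MTR4 and the poly(A) polymerase gene PAP2, did not pass, at 0.08 and 0.02 (adjusted p = 0.34 and 0.72). Of the exosome cofactor genes, LRP1 rose by 0.24 and RRP6 by 0.15, and MPP6 did not pass at 0.17 (adjusted p = 0.13). MTR4, PAP2, LRP1, RRP6 and MPP6 were named after their values were seen. Relative to its chromosome AIR2 was at -0.21 and no longer passed (adjusted p = 0.051). MTR4 and MPP6 passed as higher by that scaling, at 0.22 and 0.30 (adjusted p = 0.021 and 0.024). The list then had 4 higher and 2 lower, against 30.1% and 31.5% of all genes. With the spiked controls as reference, 4 genes in the list were higher and 0 lower.

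The nucleotide enzymes were placed among the other genes of their pathways. Of 20 tested genes of purine synthesis and salvage, 5 were higher and 7 lower, against 30.2% and 37.2% of all genes, and the median difference was 0.03. ADE1, of the de novo pathway, and BAS1, its transcriptional activator, rose by 0.99 ± 0.06 and 0.87 ± 0.08 but they are genes of chromosomes I and XI, and relative to these they were at 0.26 and 0.12. FCY2, the purine-cytosine permease gene, fell by 0.78 ± 0.06 (adjusted p = 2e-05). GUA1, which follows the IMP dehydrogenases on the way to GMP, was at 0.08 ± 0.04 (adjusted p = 0.13). Relative to its chromosome GUA1 passed as higher, at 0.22 (adjusted p = 0.0035). ADE13, which follows ADE12 on the way to AMP, rose by 0.22 ± 0.05 (adjusted p = 0.006) although ADE12 fell. AMD1, the AMP deaminase gene that returns AMP to IMP, fell by 0.38 ± 0.06 (adjusted p = 0.0011). ADK1, the adenylate kinase gene, fell by 0.30 ± 0.06 (adjusted p = 0.0036). By the spiked controls AMD1 and ADK1 were at -0.11 and -0.03 without a call (adjusted p = 0.56 and 0.89). FCY2 still passed as lower by them, at -0.51 (adjusted p = 0.0019). GUA1, ADE13, AMD1 and ADK1 were named after their values were seen.

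Of 15 other tested pyrimidine genes, 6 were higher and 3 lower, where 30.2% and 37.2% of all genes were, and 4 of the 15 lie on chromosomes I, XI and XVI. The median difference was 0.12, which was -0.04 relative to chromosome medians. URA1, the dihydroorotate dehydrogenase gene, had the largest change, with 13.63, 13.44 and 13.32 in nab2-1 against 11.86, 11.72 and 11.89 in the wild type. Its rise of 1.64 ± 0.09 (3.12-fold, adjusted p = 4.7e-06) was larger than that of its chromosome XI, and relative to it URA1 was at 0.89 (adjusted p = 0.00012). FUR4, the uracil permease gene, fell by 1.19 ± 0.08 (2.28-fold lower, adjusted p = 1.5e-05) and FUI1, the uridine permease gene, by 0.72 ± 0.05 (1.65-fold lower, adjusted p = 1.2e-05). Among the steps between URA2 and URA7, URA4 rose by 0.38 ± 0.06 and URA5 by 0.22 ± 0.05, both on chromosomes outside I, XI and XVI, and URA3 did not pass at -0.10 ± 0.11 (adjusted p = 0.47). URA10, the minor form of the URA5 enzyme, was at -0.06 (adjusted p = 0.34). URA6, the UMP kinase gene, rose by 0.44 ± 0.05 (adjusted p = 0.00017) but lies on chromosome XI and was at -0.31 relative to it (adjusted p = 0.0013). YNK1, the nucleoside diphosphate kinase gene of that chromosome, was at 0.12 (adjusted p = 0.059) and at -0.63 relative to it (adjusted p = 4e-05). URA4, URA5, URA6, URA10 and YNK1 were named after their values were seen.

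**Figure D5:**
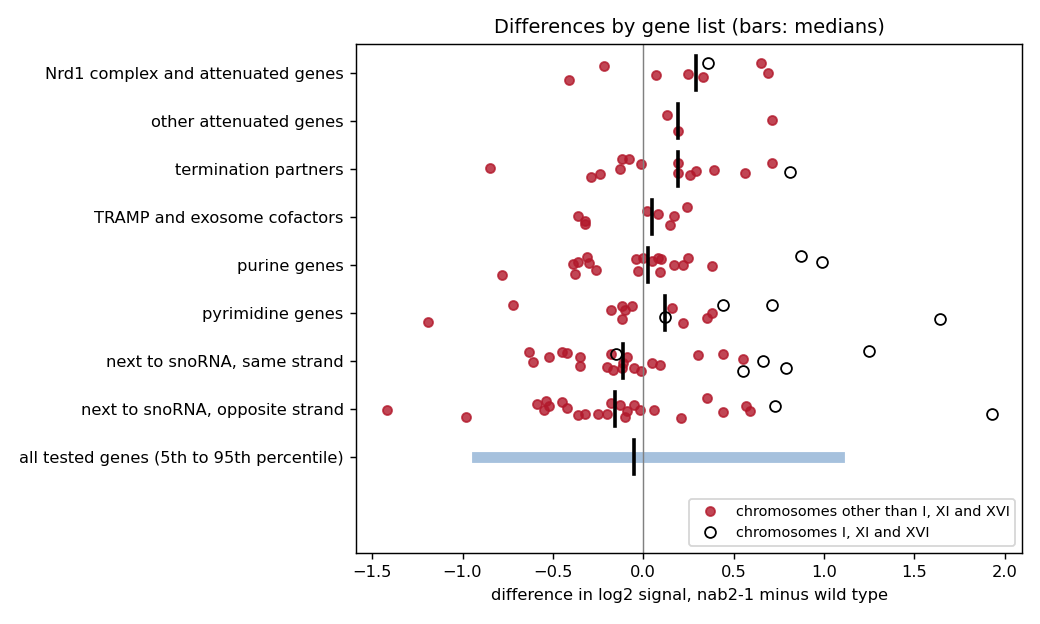
Difference in log2 signal (horizontal axis, nab2-1 minus wild type) of each gene of 8 lists, with open circles for genes of chromosomes I, XI and XVI and black bars for medians. The bottom row gives the median (-0.05) and the span from the 5th to the 95th percentile of all tested genes. The 8 genes of this report, in the row for the Nrd1 complex and attenuated genes, include IMD3 and have a median of 0.29. Genes next to snoRNA genes have medians of -0.11 (same strand) and -0.16 (opposite strand).

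When Nrd1-dependent termination fails at a snoRNA gene, transcription runs into the gene downstream, which makes these neighbours a readout of the complex. The reference table of the S288C assembly held 76 snoRNA genes, of which 11 overlapped another gene and were left out. The next gene was protein-coding on the same strand for 25 and on the opposite strand for 26, and all of these were tested. Of the 25 same-strand neighbours, 6 were higher and 10 lower in nab2-1, with a median of -0.11. Chromosomes I, XI and XVI hold 5 of the 25, and of the 6 higher only USE1 and PMD1 lie outside them. Among all tested genes outside these chromosomes 19.8% were higher and 43.2% lower. Of the 26 opposite-strand neighbours, which readthrough would not raise in sense, 7 were higher and 12 lower, and the median difference was -0.16. Both lists were near the shares over all genes as deposited (30.2% higher and 37.2% lower), and PMD1 and RPS14A are in both. Relative to chromosome medians 4 same-strand neighbours were higher and 9 lower, and on the opposite strand 7 and 10. All genes were then 30.1% higher and 31.5% lower. With the spiked controls these counts were 8 and 1, and 8 and 2, against 39.1% and 11.4% of all genes. USE1, PMD1 and RPS14A were named after their values were seen. The strand of the probes was not used here, so sense and antisense signal were not told apart.

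Among same-strand neighbours the largest rise was that of RGT1, a glucose-regulated repressor gene next to SNR69 on chromosome XI, at 1.25 ± 0.09 (adjusted p = 1.4e-05) and 0.50 relative to the chromosome. The neighbours of the snoRNA genes best known from Nrd1 mutants were named outside the rule for named genes. CTO1, next to SNR33, had 9.17, 9.10 and 9.21 in nab2-1 against 9.68, 9.65 and 9.70 in the wild type, a fall of 0.52 ± 0.05 (adjusted p = 6e-05). TRS31, next to SNR13, fell by 0.42 ± 0.06 (adjusted p = 0.00068). YDR042C, next to SNR47, had 7.59, 8.14 and 8.25 in nab2-1 against 7.74, 7.75 and 7.59 in the wild type, and its difference of 0.30 ± 0.16 did not pass (adjusted p = 0.14). Scaled to the spiked controls YDR042C passed as higher, at 0.57 (adjusted p = 0.00042), although its groups overlapped as deposited. CTO1 and TRS31 were then at -0.24 and -0.15 without a call (adjusted p = 0.17 and 0.41). The error of that scaling is shared by all genes of an array, so these p-values are approximate. On the opposite strand the largest changes were those of KTR2 (next to SNR42, chromosome XI) at 1.93 ± 0.07 and 1.18 relative to its chromosome, CMC4 (next to SNR11) at -1.42 ± 0.13 and ODC2 (next to SNR35) at -0.98 ± 0.07.

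The nearest protein-coding genes on each side of the 8 genes were examined next. Of 12 tested neighbours, 1 was higher and 4 lower, against 30.2% and 37.2% of all genes, and the median difference was -0.08. RAD50 and MRPL17, beside NRD1, differed by 0.12 ± 0.05 (adjusted p = 0.052) and -0.07 ± 0.06 (adjusted p = 0.39). COA2, beside NAB3, rose by 0.74 ± 0.09 and was at 0.00 relative to chromosome XVI. ATG23, which lies between SEN1 and IMD3, was at 0.13 ± 0.06 (adjusted p = 0.073), CRN1, upstream of SEN1, at 0.18 ± 0.08 (adjusted p = 0.071), and CNA1, downstream of IMD3, at 0.00 ± 0.08 (adjusted p = 0.98). SOD1, downstream of URA8, fell by 0.54 ± 0.05, and VPS25, upstream of it, was at -0.10 ± 0.05 (adjusted p = 0.098). ALG9, downstream of ADE12, fell by 0.38 ± 0.06 and POP1, upstream, was at -0.14 ± 0.06 (adjusted p = 0.097). The neighbours of IMD2 were not analysed here.

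Genes with a pattern like that of NRD1, which had the largest difference of the 8, were sought by Pearson correlation over the 6 arrays, as a description of 2 groups of 3 arrays that share each array's processing. The 3 highest were SPS1, a sporulation kinase gene (r = 0.9989), VPS27, an endosomal sorting gene (r = 0.9987), and GPI18, a mannosyltransferase gene of the GPI anchor pathway (r = 0.9983). In all, 77 genes had r above 0.99. Of deviations from the group means, the correlations with NRD1 were 0.974 for SPS1, 0.981 for VPS27 and 0.987 for GPI18. The 3 genes were picked on these same arrays, so such high values follow from the choice and are no separate evidence. The differences of the 3 genes were unequal, at 1.72 ± 0.14 for SPS1, 0.61 ± 0.06 for VPS27 and 0.68 ± 0.08 for GPI18.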

How the data were processed

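Total RNA of 6 yeast samples was labelled with biotin and hybridised to 1 Affymetrix array each, and the deposited table holds log2 values that the authors made with GCOS, RMA and limma, per the submitters' processing notes, which give no versions or order. The values were used as deposited. Of 10928 probe sets, 5498 had 1 Saccharomyces cerevisiae gene in the platform annotation, with symbols updated through the RefSeq table of assembly R64 (12 changed). The highest-mean probe set per gene left 5449 genes. That table gave the order, strand and overlap of genes, and none of its coordinates is printed. Differences were fitted with the package limma (version 3.58.1, R 4.3.3; lmFit, eBayes, two-sided, Benjamini-Hochberg over 5449 genes, threshold 0.05). The number of arrays limits the precision. Pairs of genes were compared with exact permutation tests and, as an alternative added after the data were seen, with limma on within-array differences.

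The alternatives were other normalizations, 36 spiked control probe sets, chromosome medians (per array, the median shift of a chromosome's genes was subtracted), filters on dim genes, variance models, the replicate number as a block, stricter thresholds and each array left out in turn. The 8 genes and all lists were chosen with earlier results of these data known. By a written rule the text names the 8 genes, NAB2, the attenuated genes and paralogs, nearest neighbours, up to 3 genes with the largest changes past the threshold per list, up to 4 next to snoRNA genes, and the 3 genes most correlated with NRD1; others are stated as named later. ADE5,7, ESS1 and IMD1 were not analysed here. Plots used matplotlib 3.10.9 (Python 3.11.15).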

Additional observations from a re-analysis of the deposited data

How the results depend on the processing

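Each of the 8 genes was tested under 19 alternatives (18 for NAB3, which has no value without chromosomes I, XI and XVI). NRD1 (0.63 to 0.97), SEN1 (0.23 to 0.52), IMD2 (0.45 to 0.93) and URA2 (0.30 to 0.60) kept their direction and call in all 19. NAB3 reversed to -0.38 relative to chromosome medians (adjusted p = 0.0012). There URA8 was at -0.07 (adjusted p = 0.29) and no longer passed. Scaled to the spiked controls, URA8 was at 0.06 (adjusted p = 0.77) and ADE12 at -0.14 (adjusted p = 0.45), both without a call, while IMD3 passed at 0.34 (adjusted p = 0.044). The cause was not tested. Of the 8 genes, 5 were higher and 2 lower as deposited, and 0 were lower with the spiked controls. With a change of at least 2-fold required, 0 were higher and 0 lower, against 322 higher and 216 lower over all genes. Over all genes 1644 were higher and 2028 lower as deposited. With the spiked controls 622 were lower, and without chromosomes I, XI and XVI, where fewer genes are tested, 907 were higher. With 1 array left out, 1499 to 1681 genes were higher and 1838 to 2012 lower, and the counts of 5 and 2 among the 8 genes held. Equal replicate numbers did not pair the samples: deviations from the group means correlated at -0.19, 0.19 and -0.14, and 2 of 6 samples correlated best with their own number. With the replicate number as a block, 1582 genes were higher and 1932 lower, and no call among the 8 genes changed. Of the 7 pairs of genes, whose exact test cannot pass, 5 passed in the added limma fit of within-array differences. They were NRD1 minus NAB3 (0.33), NRD1 minus SEN1 (0.44), IMD2 minus IMD3 (0.58), IMD2 minus IMD4 (0.56) and URA8 minus URA7 (-0.57). The share of all genes that passes such a fit was not counted, and in the fit of single genes 67.4% passed. The count of 5 is therefore no measure of unequal change particular to these pairs. Of 66 counts and medians of the other lists under the chromosome and spiked scalings, 37 moved. Signals of all 8 genes lay above the 95th percentile of probe sets of the other yeast on the array, a log2 signal of 4.27. That level is low, and only 51 of the 5449 tested genes had a mean under it. Whether background or shared probes limited the 8 genes was not tested.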
